A study of Homo sapiens with 54 samples.

Results

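The effect of ionizing radiation was measured in NCI-H460 cells that had first been given cigarette smoke extract, at the early harvest of 2 h. NCI-H460 is a cell line that grew out of a large cell lung carcinoma. The comparison set 3 arrays of irradiated smoke extract cells (titled Radiation+cigarette_smoke_extract_2h) against 3 arrays of smoke extract cells without radiation (Cigarette_smoke_extract_2h), 6 of the 54 arrays of the series, and the arrays were chosen by their titles. Both groups were kept without serum and received smoke extract at 5 uM nicotine equivalent, and 2 h later the irradiated cultures received 6 Gy from a cesium source. Other groups used below are radiation alone and its controls without any agent, radiation after 5 uM nicotine and nicotine without radiation, and smoke extract followed by 1 uM cisplatin, all harvested at 2 h, and the same pair of smoke extract groups harvested at 24 h. Every group held 3 arrays, which the labels call biological replicates. The p-values set a difference against the spread between cultures within groups, estimated over all 18 groups together unless stated otherwise. All 18 groups came from 1 cell line, and cultures shared 9 multi-well plates whose layout is not given in the sources used here.

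Radiation breaks both strands of DNA, and the kinase ATM at such breaks stabilises p53, a transcription factor that turns on genes for cell cycle arrest, repair and cell death. The damage checkpoint also holds cells in G2, and p21, a product of p53 activity, brings about the repression of many genes of the late cell cycle. Smoke extract carries combustion products that bind the aryl hydrocarbon receptor (AHR), together with oxidants and other agents that can themselves damage DNA.

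Values are the deposited array levels on a scale taken to be log2, for 18417 genes, each read at 1 transcript cluster, and a difference of 1 is then a 2-fold change. Correlations between arrays of 1 group ran from 0.979 to 0.996, and from 0.99 to 0.996 for the 6 arrays compared here. Among these 6 the lowest, 0.99, was that of smoke extract replicates 2 and 3. The other pairs within the 2 groups correlated at 0.9945 or more. Epithelial keratin and claudin genes were detected, 6 of 8 markers lying above the low end of the scale, which is 6.09, the level under which 95% of 361 olfactory receptor genes lay. EPCAM and CDH1 were not above it. Averaged over each list, the array means of leukocyte markers ran from 5.86 to 5.99 in irradiated smoke extract cells and from 5.73 to 5.93 in smoke extract cells. Fibroblast markers ran from 5.67 to 5.80 in irradiated smoke extract cells and from 5.58 to 5.75 in smoke extract cells, and endothelial markers from 5.38 to 5.59 in irradiated smoke extract cells and from 5.34 to 5.54 in smoke extract cells. Of these lists 4 of 9, 5 of 9 and 1 of 8 markers lay above the low end, and 0 markers of any of them were called.

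In smoke extract cells radiation raised 25 genes within 2 h, among them 15 p53 targets, and lowered CCNF, BORA, FAM83D and TROAP. Of the 18417 genes, limma called 29 at an adjusted p under 0.05 (0.157%), 25 of them higher (0.136%) and 4 lower (0.0217%), and 416 had an unadjusted p under 0.05. Those 416 are fewer than the share of 0.05 of all genes that evenly spread p-values would give. The largest rise was that of GADD45A, the only call past 2-fold, and 15 of the 29 passed 1.5-fold. In all 29 the 3 arrays of each group did not overlap, which held for 5.03% of all genes in the higher direction and 3.2% in the lower. Fitted on the 6 arrays alone the data gave 55 calls, 35 higher and 20 lower, and with the olfactory receptor mean of each array as a covariate 34, 25 higher and 9 lower. The count was 17 without smoke extract replicate 2 and 18 without irradiated smoke extract replicate 3.

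The genes that arrest the cell cycle or feed back on p53 held the strongest changes. GADD45A, a growth arrest gene named for its induction by DNA damage, had levels of 7.88, 8.05 and 7.90 in irradiated smoke extract cells, against 6.83, 6.95 and 6.86 in smoke extract cells. The 2 groups stood well apart, and the level was 2.09-fold higher (log2 change 1.06 ± 0.11, SE of the limma fit, adjusted p = 1.87e-08). PLK3, a polo-like kinase of the stress response, had 7.64, 7.81 and 7.97 in irradiated smoke extract cells, against 6.95, 6.78 and 6.94 in smoke extract cells. Its lowest irradiated array lay above every array without radiation, and it rose 1.89-fold (0.92 ± 0.09, adjusted p = 6.18e-09), the smallest p of all genes. The related kinase gene PLK2 rose by 0.47 ± 0.09.

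CDKN1A, which encodes the cyclin-dependent kinase inhibitor p21, had levels of 9.70, 9.97 and 10.06 in irradiated smoke extract cells, against 8.95, 9.06 and 9.19 in smoke extract cells. All irradiated arrays were higher, and the rise was 1.79-fold (0.84 ± 0.16, adjusted p = 0.00281). MDM2, the ubiquitin ligase that targets p53 for degradation, had 10.45, 10.78 and 10.78 in irradiated smoke extract cells, against 10.14, 10.20 and 10.18 in smoke extract cells. Replicate 1 of the irradiated cells lay midway between the other irradiated arrays and the arrays without radiation. The MDM2 level was 1.41-fold higher (0.50 ± 0.11, adjusted p = 0.0237). Limma's adjusted p for CDKN1A was 0.0509 without smoke extract replicate 1 and 0.0672 without irradiated replicate 3. The MDM2 call was lost on leaving out any 1 array but irradiated replicate 1, with adjusted p from 0.103 to 0.378, and PLK2 lost its call without smoke extract replicate 2 (adjusted p = 0.135) or irradiated replicate 1 (adjusted p = 0.189).

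Further genes of this group were TP53INP1, a p53-induced cofactor in autophagy and cell death, PPM1D, the phosphatase that switches the damage signal off, PHLDA3, an inhibitor of the kinase AKT, and E2F7, a repressor of E2F-driven cell cycle genes. TP53INP1 had 7.23, 7.58 and 7.58 in irradiated smoke extract cells, against 6.49, 6.43 and 6.72 in smoke extract cells, a 1.88-fold rise (adjusted p = 9.15e-05). PPM1D averaged 8.85 ± 0.16 in irradiated smoke extract cells and 8.22 ± 0.04 in smoke extract cells (SD, n = 3 arrays each), a 1.54-fold rise in the limma fit. PHLDA3 averaged 8.32 ± 0.18 in irradiated smoke extract cells and 7.66 ± 0.11 in smoke extract cells, a 1.58-fold rise. The list of p53 feedback and arrest genes had 21 of 22 members measured, of which 9 rose and 0 fell, against 0.136% of all genes rising. Its median log2 change was 0.30, against 0.01 over all genes, and 0.48 when only genes above the median level were kept. Members that did not pass the test included GDF15, a secreted stress cytokine (0.63 ± 0.27), and ZMAT3, a splicing regulator (0.30 ± 0.15).

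Death receptor genes and other death genes formed a smaller group. FAS, the receptor that triggers caspases on binding its ligand, had levels of 8.44, 8.51 and 8.60 in irradiated smoke extract cells, against 7.80, 7.62 and 7.68 in smoke extract cells. The groups were far apart, with a 1.76-fold rise (0.82 ± 0.11, adjusted p = 2.09e-06). TNFRSF10D, a decoy receptor that binds the death ligand TRAIL without a full death domain, had 7.79, 7.89 and 7.86 in irradiated smoke extract cells, against 7.11, 7.13 and 7.27 in smoke extract cells. It rose 1.60-fold (0.68 ± 0.07, adjusted p = 9.66e-09), and AEN, a nuclease active in apoptosis, rose 1.47-fold. These 3 were the calls among 16 of 18 death genes measured, with 0 lower and a median of 0.19. The mitochondrial death genes named here did not pass the test, the pore-forming BAX at 0.26 ± 0.07 (adjusted p = 0.187), and the BH3-only genes PMAIP1 at 0.45 ± 0.24 and BBC3 at 0.20 ± 0.13. Across the BCL2 family as a whole 0 of 15 measured genes were called.

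Among p53 targets in metabolism and stress, 2 sestrin genes rose. Sestrins restrain the growth kinase mTORC1 under stress. SESN1 had levels of 7.27, 7.49 and 7.60 in irradiated smoke extract cells, against 6.54, 6.33 and 6.69 in smoke extract cells, a 1.91-fold rise (adjusted p = 8.56e-06). SESN2 had 7.95, 8.06 and 8.14 in irradiated smoke extract cells, against 7.53, 7.52 and 7.51 in smoke extract cells, a 1.44-fold rise (adjusted p = 0.000444). In both genes the groups were apart, and the other 15 of the 17 measured genes of this list were not called (median 0.12). In the repair and nucleotide list, DDB2, which recognises ultraviolet lesions for nucleotide excision repair, was the single call among 14 measured genes. DDB2 had 9.18, 9.23 and 9.33 in irradiated smoke extract cells, against 8.75, 8.57 and 8.85 in smoke extract cells, a 1.44-fold rise (adjusted p = 0.000916, and 0.0532 without smoke extract replicate 2). The list members XPC (0.36 ± 0.11), POLH (0.30 ± 0.09) and RPS27L (0.39 ± 0.13) did not pass the test. The median of that list was 0.08, and 0.15 without irradiated replicate 2.

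Taking the 4 lists of p53 targets as 1, 67 of 74 genes were measured, 15 rose and 0 fell, and 58 had a positive change, against 55.0% of all genes. SESN2 is also in the ATF4 list and TNFRSF10B is in 2 of the p53 lists, so the lists are not independent.

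**Figure D1:**
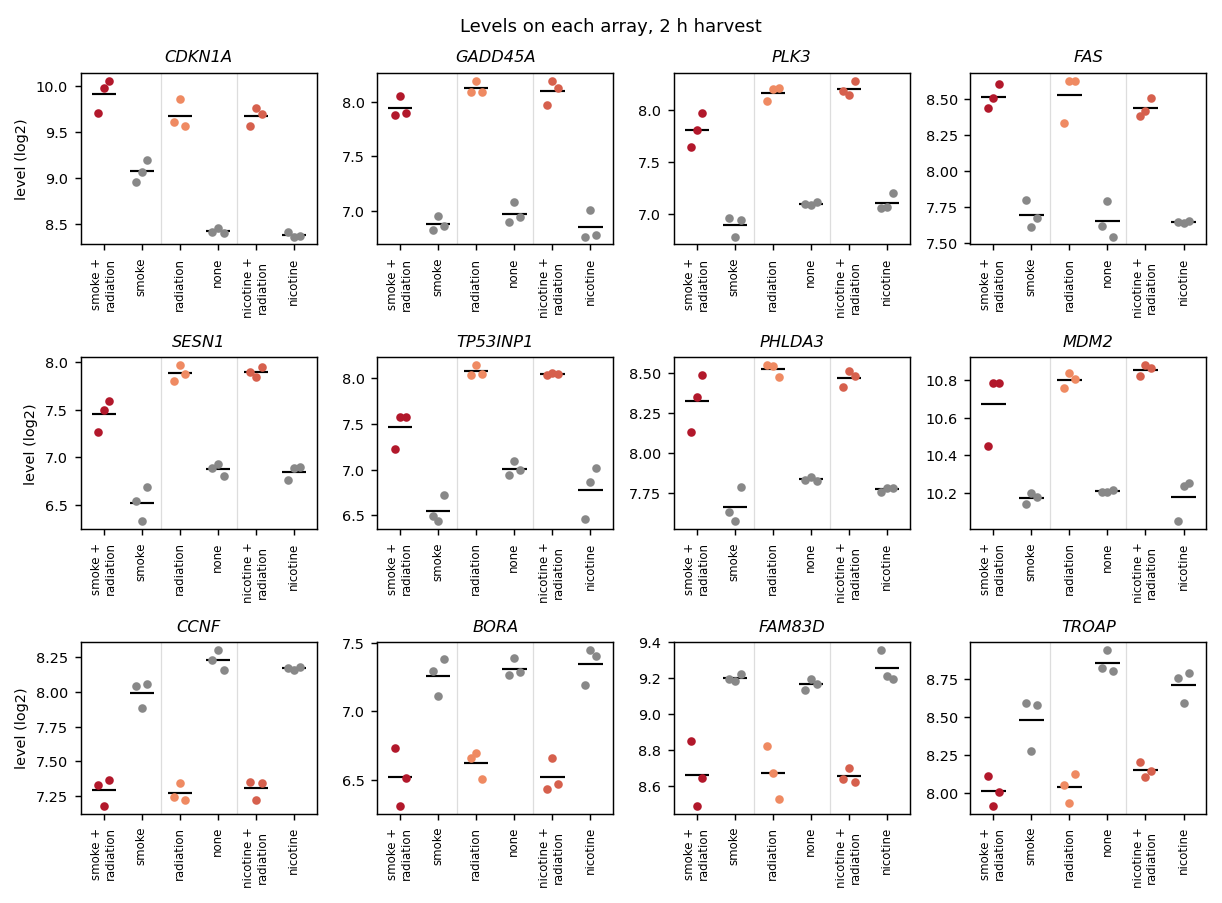
Levels (log2, vertical axes that do not start at 0) of 12 genes on each array of 6 groups at 2 h, with each irradiated group left of its group without radiation and a bar at the mean of 3 arrays. The 3 arrays of irradiated smoke extract cells lie above those of smoke extract cells in the upper 8 panels and below them in the lower 4, and in CDKN1A the smoke extract cells without radiation lie above the other groups without radiation.

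Promoter sequences are shown for the called genes in which a short motif tied to the response was present. RefSeq windows (GRCh38.p14, from 250 bases before to 50 after each start, both strands searched) were found for 19 of the 25 higher and 2 of the 4 lower genes. The p53 half-site, the 10-base element that p53 binds in pairs, was in a window of 5 of the 19 higher genes, 0 of the 2 lower genes and 8.06% of all 27305 genes. Positions count from the start of transcription, and capitals mark the half-site, in DDB2 both half-sites.
SESN1 chr6:109009018-109009047, minus strand: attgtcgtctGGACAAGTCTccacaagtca
AEN chr15:88621296-88621325, plus strand: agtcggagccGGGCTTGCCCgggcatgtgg
PLK2 chr5:58460199-58460228, minus strand: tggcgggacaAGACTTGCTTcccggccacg
FAS chr10:88991299-88991328, plus strand: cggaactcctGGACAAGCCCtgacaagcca
DDB2 chr11:47214975-47215004, plus strand: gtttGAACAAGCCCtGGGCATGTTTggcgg
The half-site lay at -49 to -40 in SESN1, -34 to -25 in AEN, -132 to -123 in PLK2 and -122 to -113 in FAS. In DDB2 the half-sites lay at 6 to 15 and 17 to 26, just inside the transcript of its second start, and such a pair with a gap of 0 to 13 bases was found in 10 of the 35116 windows searched. A match is a description of the letters and shows no binding.

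Of the 4 genes that fell, CCNF was in the G2/M and mitosis list and BORA, FAM83D and TROAP were in no list. CCNF encodes cyclin F, an F-box protein of late cell cycle phases, and had levels of 7.33, 7.18 and 7.36 in irradiated smoke extract cells, against 8.04, 7.88 and 8.06 in smoke extract cells. No irradiated array came near the others, and the level was 1.63-fold lower (log2 change -0.70 ± 0.09, adjusted p = 2.09e-06). BORA encodes the activator of Aurora A that lets PLK1 be switched on before mitosis, and had 6.73, 6.31 and 6.52 in irradiated smoke extract cells, against 7.29, 7.11 and 7.38 in smoke extract cells. It was 1.67-fold lower (-0.74 ± 0.14, adjusted p = 0.00357). FAM83D, a spindle protein gene, had 8.85, 8.49 and 8.64 in irradiated smoke extract cells, against 9.19, 9.18 and 9.22 in smoke extract cells. TROAP, which encodes a spindle assembly protein, had 8.11, 7.92 and 8.01 in irradiated smoke extract cells, against 8.59, 8.28 and 8.58 in smoke extract cells. Neither gene had an irradiated array within the range of the others. FAM83D was 1.46-fold lower (adjusted p = 0.000203) and TROAP 1.39-fold lower (adjusted p = 0.0266). In RNA from whole cultures, fewer cells in G2 and less transcript per cell cannot be told apart. BORA lost its call without smoke extract replicate 3 (adjusted p = 0.0604) or irradiated replicate 2 (0.116), and TROAP without smoke extract replicate 1 or 3 or irradiated replicate 2 or 3 (adjusted p from 0.187 to 0.427).

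The G2/M and mitosis list, of which 42 of 44 genes were measured, had 1 call, CCNF. Its members ran from -0.70 to 0.22 with a median of -0.18, and 37 of 42 were negative, against 45.0% of all genes. PLK1, the kinase that drives mitotic entry, had 10.84, 10.55 and 10.62 in irradiated smoke extract cells, against 10.95, 10.84 and 10.94 in smoke extract cells, and the groups overlapped at 10.84. Its log2 change was -0.24 ± 0.07 (adjusted p = 0.495), with an adjusted p of 0.0441 without irradiated replicate 1. AURKA, which encodes the kinase Aurora A, had a change of -0.37 ± 0.10 (adjusted p = 0.384), ASPM, a spindle pole gene, -0.28 ± 0.09, and WEE1, the kinase that holds CDK1 inactive, -0.47 ± 0.16. Other transcript clusters of WEE1 had changes of -0.26 and -0.54, neither of them called. Estimated array weights, which did not converge, called PLK1, ASPM and WEE1 lower (limma adjusted p = 2.09e-09, 2.01e-07 and 3.69e-05).

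Sequences around the starts of CCNF and BORA are printed because both windows held TTTGAA, the core of the cell cycle homology region of late cell cycle genes, and CCAAT, the box bound by NF-Y. Capitals mark TTTGAA in both and CCAAT in CCNF.
CCNF chr16:2429327-2429386, plus strand: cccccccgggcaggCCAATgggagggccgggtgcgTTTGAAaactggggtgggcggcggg
BORA chr13:72727719-72727778, plus strand: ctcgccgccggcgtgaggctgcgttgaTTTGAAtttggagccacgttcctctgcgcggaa
In CCNF the box was at -106 to -102 and TTTGAA at -85 to -80, and in BORA TTTGAA was at -177 to -172. TTTGAA was in 2 of 2 lower and 4 of 19 higher genes, in DDB2 overlapping a p53 half-site, and in 18.2% of all genes. CCAAT was in 2 of 2 lower and 9 of 19 higher genes and in 39.7% of all genes.

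Of the other called genes, 9 of the 25 that rose were in no list. PRDM1, a transcriptional repressor known from plasma cells, had levels of 7.25, 6.98 and 7.20 in irradiated smoke extract cells, against 6.44, 6.39 and 6.42 in smoke extract cells. It rose 1.66-fold (adjusted p = 2.09e-06) with its groups apart by more than the spread in either. ID3, an inhibitor of basic helix-loop-helix factors, rose 1.64-fold (adjusted p = 0.00657, and 0.214 without smoke extract replicate 2 and 0.229 without irradiated replicate 3). TNFSF9, the ligand of the T cell receptor 4-1BB, rose 1.52-fold (adjusted p = 0.00222, and 0.0585 and 0.0652 without the same arrays). GAS6-AS1, an antisense RNA, rose 1.51-fold (adjusted p = 0.0307), while GAS6 on the opposite strand had a log2 change of 0.04 ± 0.10. The GAS6-AS1 call was kept without irradiated replicate 1 and lost without any other single array, with adjusted p from 0.0865 to 0.723.

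The remaining 5 of these genes and SLC30A1 had smaller rises, between 0.37 and 0.43. KLF11, RGS16, RNF19B, BHLHE41 and TRAF4 are named after their values were seen. KLF11 and BHLHE41 are repressors, RGS16 shortens G protein signalling, RNF19B is a ubiquitin ligase, TRAF4 is an adaptor of receptor signalling, and SLC30A1 exports zinc. BHLHE41 had 7.67, 7.60 and 7.70 in irradiated smoke extract cells, against 7.27, 7.27 and 7.26 in smoke extract cells, a 1.31-fold rise (adjusted p = 0.0289). Its groups were clearly apart, yet its call was lost whichever single array was left out (adjusted p from 0.0641 to 0.287), as was that of RGS16 (0.0604 to 0.422). KLF11 (adjusted p = 0.0132) lost its call without smoke extract replicate 1 or 2 or irradiated replicate 1 (0.0892 to 0.378). RNF19B (adjusted p = 0.0186) lost it without smoke extract replicate 2 or 3 or any 1 irradiated array but replicate 2 (0.0592 to 0.322). TRAF4 (adjusted p = 0.0248) lost it without any 1 array but irradiated replicate 1 (0.0758 to 0.644), and SLC30A1 (adjusted p = 0.0368) without smoke extract replicate 1 or 2 or irradiated replicate 2 or 3 (0.188 to 0.723).

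**Figure D2:**
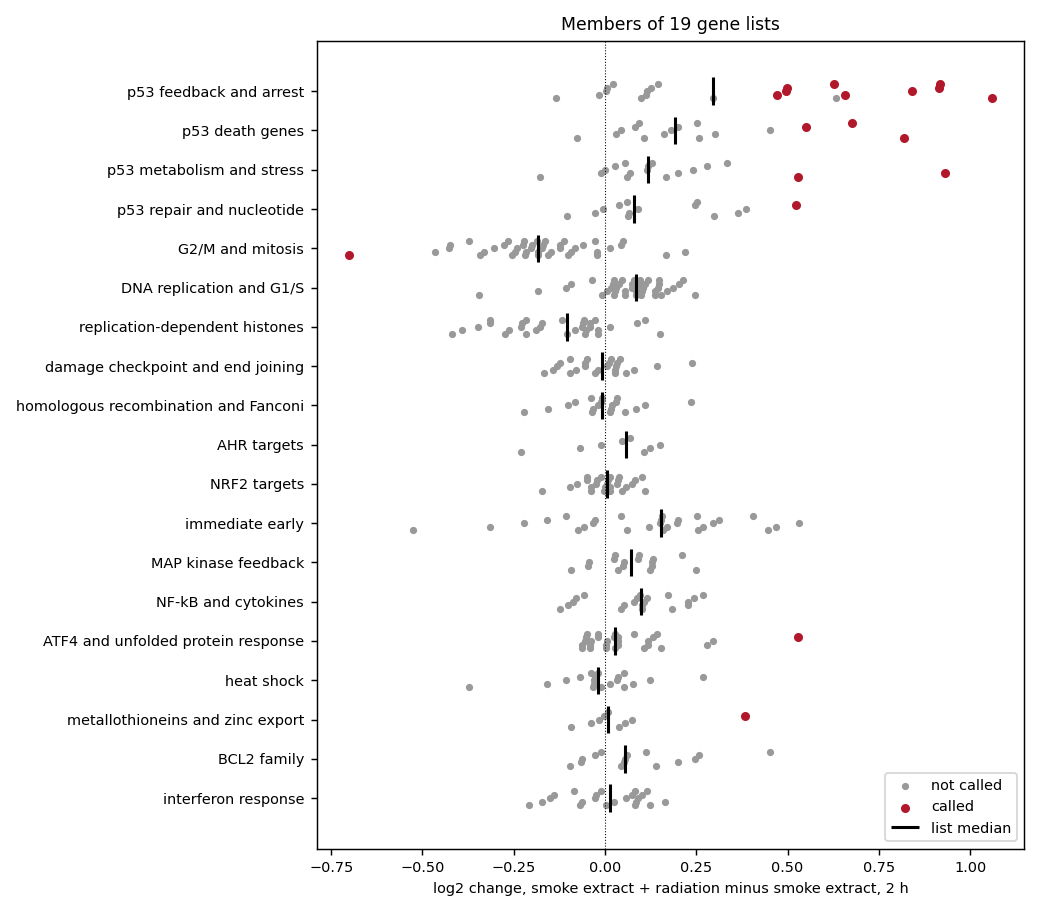
Log2 change of every measured member of 19 gene lists in irradiated smoke extract cells minus smoke extract cells at 2 h, with called genes in red and a bar at each list's median. Red points are found in the 4 p53 lists on the right, at CCNF in the G2/M list on the left, and once each in the ATF4 (SESN2) and zinc (SLC30A1) lists.

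Genes of DNA replication and G1/S, 41 of 42 measured, had 0 calls and a median of 0.08, with 35 of 41 positive. Replication-dependent histone genes, all 31 measured, had 0 calls and a median of -0.10, and -0.22 when only genes above the median level were kept. Of the 31, 27 were negative, against 45.0% of all genes. The genes of the damage checkpoint and end joining (24 of 25 measured, median -0.01) and of homologous recombination and the Fanconi pathway (19 of 25, median -0.01) had 0 calls. Immediate early genes, 28 of 30 measured, had 0 calls and a median of 0.15. Of the 28, 19 were positive and 9 negative. The largest positive values were those of the matrix signal gene CCN1 (0.53 ± 0.15), the nuclear receptor gene NR4A2 (0.47 ± 0.13) and the transcription factor genes KLF4 (0.45 ± 0.11) and JUNB (0.41 ± 0.10, adjusted p = 0.138), and the lowest was that of FOS, a subunit of the AP-1 factor (-0.52 ± 0.36, adjusted p = 1), none past the threshold. FOS had levels of 7.45, 7.23 and 7.02 in irradiated smoke extract cells, against 7.11, 7.19 and 8.97 in smoke extract cells, so that 1 array without radiation stood far above the other 5. The medians of the remaining lists, each with 0 calls, were 0.07 for 16 MAP kinase feedback genes, 0.10 for 20 genes of NF-kB and cytokines, -0.02 for 19 heat shock genes, 0.05 for 15 genes of the BCL2 family and 0.01 for 22 interferon response genes. The ATF4 and unfolded protein response list had 1 call in 29 and a median of 0.03, and the metallothionein and zinc list 1 in 9 and 0.01.

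Of the genes that mark the smoke extract response, none named here was called for radiation without array weights. Estimated array weights, which did not converge, called CYP1A1 (log2 change -0.38, limma adjusted p = 8.05e-06) and TIPARP (0.20, adjusted p = 0.000834). They also called ATF3 (0.17, adjusted p = 0.00908), which was not chosen as a smoke responsive gene. CYP1A1, an AHR target that encodes a detoxifying P450 enzyme, had levels of 8.42, 8.34 and 8.39 in irradiated smoke extract cells, against 8.78, 8.47 and 8.59 in smoke extract cells. The irradiated arrays lay just under the others, with a log2 change of -0.23 ± 0.14 (adjusted p = 1, 95% interval from -0.50 to 0.05). TIPARP, another AHR target, had 10.65, 10.43 and 10.48 in irradiated smoke extract cells, against 10.29, 10.35 and 10.48 in smoke extract cells, and the groups overlapped. CYP1B1 averaged 12.21 in irradiated smoke extract cells and 12.27 in smoke extract cells, and the secreted hormone gene STC2 averaged 9.83 in irradiated smoke extract cells and 9.72 in smoke extract cells. Of the AHR targets 8 of 10 were measured and 0 called (median 0.06), and of the NRF2 antioxidant genes 26 of 28 were measured and 0 called (median 0.01), among them HMOX1 (-0.17 ± 0.10). The cytokine genes IL1A and IL6 both had changes of 0.23 (± 0.16 and ± 0.21), the phosphatase gene DUSP1 0.13 ± 0.11 and the stress factor gene ATF3 0.16 ± 0.09. As the plotted arrays show, CYP1A1, CYP1B1, TIPARP, STC2 and IL1A were higher, and IL6 lower, on all 6 plotted smoke extract arrays than on any 2 h array of the untreated, radiation, nicotine and combined radiation and nicotine groups.

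**Figure D3:**
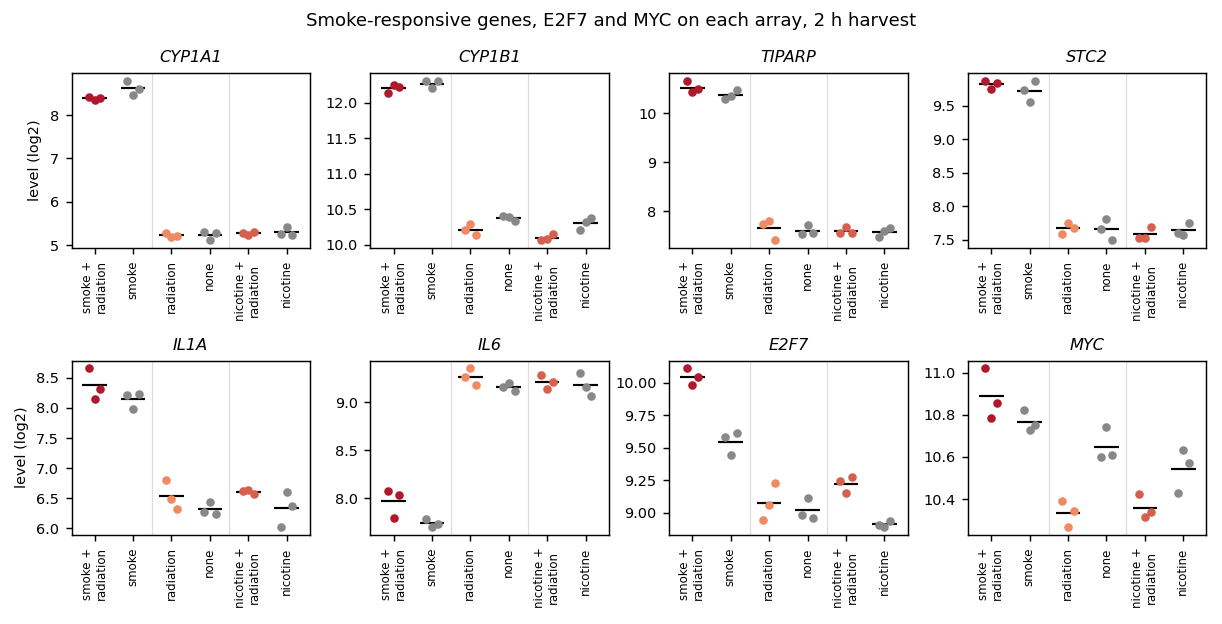
Levels (log2, vertical axes that do not start at 0) of 6 smoke-responsive genes, E2F7 and MYC on each array of 6 groups at 2 h, with each irradiated group left of its group without radiation and a bar at the mean of 3 arrays. The cisplatin groups are not plotted. The 6 smoke-responsive genes separate the smoke extract arrays from the other arrays shown with or without radiation, and of these arrays E2F7 is highest on the irradiated smoke extract arrays.

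The same dose was given to cells without pretreatment and to cells pretreated with nicotine, on arrays that are not shared with the comparison above. Radiation alone called 56 genes (0.304%), 25 higher (0.136%) and 31 lower (0.168%), and radiation after nicotine 42 (0.228%), 24 higher (0.13%) and 18 lower (0.0977%). Of the 67 measured p53 targets 15 rose in smoke extract cells, 16 with radiation alone and 14 after nicotine, and of the 42 G2/M genes 1, 4 and 3 were called lower. The G2/M list as a whole differed little between the 3, with medians of -0.18, -0.20 and -0.22. Of its 42 genes 37, 36 and 38 were negative, against 45.0%, 48.2% and 47.3% of all genes. All 25 higher genes of smoke extract cells were higher and all 4 lower genes lower in both other comparisons. The calls of smoke extract cells and of radiation alone shared 24 genes, 82.8% of those in smoke extract cells and 42.9% of those of radiation alone. With the nicotine calls 25 were shared, 86.2% and 59.5%. Calls in all 3 numbered 23, and BHLHE41, E2F7 and RGS16 passed the threshold in smoke extract cells and in neither other comparison, although the tests of a difference between comparisons called none of them unless arrays were weighted. With estimated weights the difference from the mean of both was called for E2F7 (0.29, limma adjusted p = 0.00117), BHLHE41 (0.19, adjusted p = 0.0434) and RGS16 (0.29, adjusted p = 0.0153). The same weights also called BHLHE41 (0.23, adjusted p = 0.00386) and RGS16 (0.23, adjusted p = 0.0279) higher with radiation alone. After nicotine E2F7 was called with these weights (0.32, adjusted p = 0.000199), only the compared groups (adjusted p = 0.0458) or the olfactory receptor covariate (adjusted p = 0.0315). Across all 18417 genes, which are not independent replicates, the changes in smoke extract cells correlated at r = 0.305 with those of radiation alone and at r = 0.302 with those after nicotine, and across the 9208 genes above the median level at r = 0.428 and r = 0.503. Leaving out 1 array gave 27 to 148 calls for radiation alone, 148 of them without irradiated replicate 3, and 26 to 33 after nicotine, with 26 without nicotine replicate 1 or 3 and 27 without irradiated nicotine replicate 2.

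The size of the effect was set against the other pretreatments with genes chosen outside the smoke extract arrays. The 24 genes that rose after nicotine had a median change of 0.60 in smoke extract cells and 0.67 with radiation alone, and 18 of the 24 were smaller in smoke extract cells. The 18 that fell after nicotine had medians of -0.33 and -0.49, with 16 smaller in size in smoke extract cells. Chosen instead by radiation alone, the 25 that rose had medians of 0.53 in smoke extract cells and 0.67 after nicotine, and 21 were smaller in smoke extract cells. The 31 that fell had medians of -0.26 and -0.33, and 27 were smaller in size. Over the 67 measured p53 targets the change in smoke extract cells minus that with radiation alone had a median of -0.05, and 21 of 67 were positive, against 52.8% of all genes. The change minus that after nicotine had a median of -0.02, and 25 of 67 were positive, against 52.6% of all genes.

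Limma called 0 genes (0%) for the radiation effect in smoke extract cells minus that in untreated cells, with 301 at an unadjusted p under 0.05, 0 against the effect after nicotine (159), and 0 against the mean of both (228). Estimated array weights gave 1028, 95 and 785 calls in these tests, although the weight estimation did not reach its convergence tolerance, and the other alternative settings gave 0. For CDKN1A the effect was 0.84 ± 0.16 in smoke extract cells, 1.26 ± 0.16 with radiation alone and 1.30 ± 0.16 after nicotine. The difference from radiation alone was -0.41, with a 95% interval from -0.86 to 0.03 (unadjusted p = 0.0671, adjusted p = 1). CDKN1A levels averaged 9.91 ± 0.19 in irradiated smoke extract cells and 9.07 ± 0.12 in smoke extract cells, against 9.68 ± 0.16 and 8.42 ± 0.03 with radiation alone and without any agent (SD, n = 3 arrays each). The irradiated groups thus overlapped, while the groups without radiation did not.

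The effect in smoke extract cells minus that with radiation alone was -0.27 for AEN (interval from -0.48 to -0.06, unadjusted p = 0.0146, adjusted p = 1) and -0.26 for PPM1D (-0.56 to 0.03). For GADD45A (-0.41 to 0.23), FAS (-0.36 to 0.24), SESN1 (-0.44 to 0.29) and MDM2 (-0.40 to 0.21) the interval of the difference from radiation alone spanned 0. TROAP had a change of -0.47 ± 0.10 in smoke extract cells and -0.82 ± 0.10 with radiation alone, and the interval of the difference ran from 0.06 to 0.64. That interval is not adjusted for the number of genes, and the TROAP difference was not called without array weights. WEE1 had a change of -0.47 ± 0.16 in smoke extract cells, -1.07 ± 0.16 with radiation alone and -0.78 ± 0.16 after nicotine, with the difference from radiation alone between 0.14 and 1.07 and an adjusted p of 1 for that difference (0.000378 with estimated array weights, which also called TROAP at 0.0379). These WEE1 values come from 1 of its transcript clusters. WEE1 levels in smoke extract cells without radiation, 8.14, 7.95 and 8.61, were the most spread of the groups without radiation.

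The smallest p of the difference from radiation alone belonged to MYC, NR4A2 and E2F7, each with an adjusted p of 1, although estimated array weights called all 3 (limma adjusted p = 0.00101, 0.000995 and 0.000106). MYC, the growth-promoting transcription factor gene, had levels of 11.02, 10.79 and 10.86 in irradiated smoke extract cells, against 10.82, 10.73 and 10.75 in smoke extract cells, and 10.39, 10.27 and 10.34 with radiation alone, against 10.60, 10.74 and 10.61 without any agent. The groups overlapped with smoke extract and were apart, in the lower direction, without it. The difference of the effects was 0.43 ± 0.11 (unadjusted p = 0.000228, interval from 0.22 to 0.65). E2F7 had 10.11, 9.98 and 10.04 in irradiated smoke extract cells, against 9.58, 9.44 and 9.62 in smoke extract cells, a 1.41-fold rise (adjusted p = 0.000827). With radiation alone E2F7 had 8.94, 9.06 and 9.23, against 8.98, 9.12 and 8.96 without any agent, and these groups overlapped. Its difference from radiation alone was 0.44 ± 0.12 (unadjusted p = 0.000751, interval from 0.19 to 0.68). NR4A2 had 9.67, 9.01 and 9.11 in irradiated smoke extract cells, against 8.79, 8.78 and 8.82 in smoke extract cells, so that its difference of 0.68 ± 0.18 leaned on irradiated replicate 1.

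**Figure D4:**
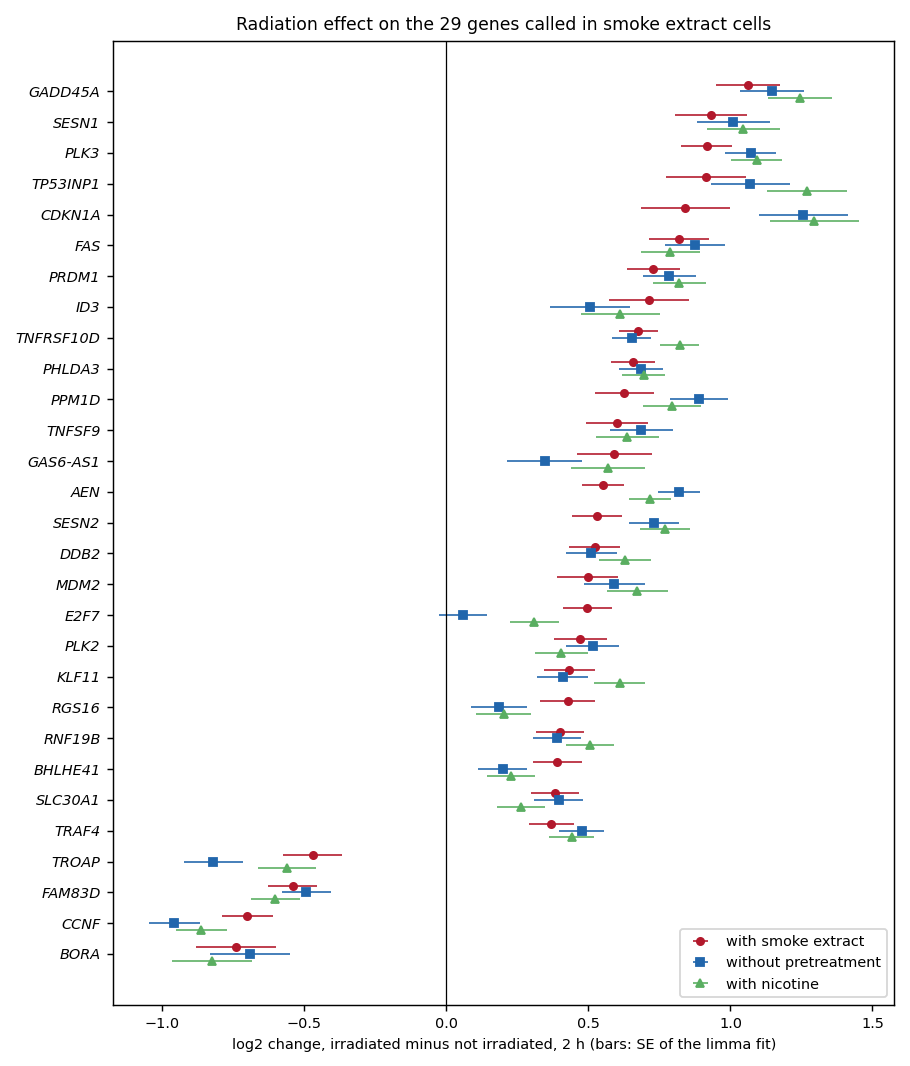
Log2 change with radiation at 2 h of the 29 genes called in smoke extract cells, with smoke extract (red circles), without pretreatment (blue squares) and after nicotine (green triangles), and bars of 1 SE of the limma fit. The 3 symbols lie on the same side of 0 for every gene, the E2F7 symbols are spread from 0.06 without pretreatment to 0.50 with smoke extract, and CDKN1A is smallest with smoke extract.

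Cisplatin, which crosslinks DNA, was also given to smoke extract cells, and irradiated smoke extract cells were set against these at 2 h. The irradiated arrays are those of the comparison with smoke extract cells, so the 2 comparisons are not independent. Limma called 51 genes (0.277%), 31 higher (0.168%) and 20 lower (0.109%) in irradiated cells. All 25 higher genes were positive here, 19 of them called, and all 4 lower genes were called lower. CDKN1A had 9.70, 9.97 and 10.06 in irradiated smoke extract cells, against 9.18, 9.02 and 8.90 in cisplatin-treated smoke extract cells (0.88 ± 0.16, adjusted p = 0.00135). GADD45A had 7.88, 8.05 and 7.90 in irradiated smoke extract cells, against 6.96, 6.97 and 6.93 in cisplatin-treated smoke extract cells (0.99 ± 0.11). Cisplatin-treated arrays lay at the level of smoke extract cells in both genes. FAS (0.93), PLK3 (0.78) and TP53INP1 (0.77) were also higher, CCNF (-0.94), BORA (-0.85), FAM83D (-0.75) and TROAP (-0.69) lower, and the histone gene H4C2 fell by 0.69. WEE1 was at 0.08 ± 0.16. Leaving out any 1 array gave 27 to 33 calls, with H4C2 lost each time (adjusted p from 0.0501 to 0.0964), and TP53INP1 had an adjusted p of 0.058 without cisplatin replicate 3. With only these 2 groups in the fit 10 genes were called, and BORA had an adjusted p of 0.0959 and TP53INP1 of 0.0797.

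At 24 h the irradiated smoke extract cells had higher p53 targets and lower replication and mitotic genes than smoke extract cells. Limma called 2611 genes (14.2%) at 24 h, 777 higher (4.22%) and 1834 lower (9.96%), and 1226 with only the compared groups. The balance of directions depended on normalization, since quantile normalization gave 2904 calls, 1379 higher and 1525 lower. Of the 67 p53 targets 41 were higher and 3 lower at 24 h, of 42 G2/M genes 41 were lower, and of 41 replication and G1/S genes all 41 were lower, with medians of 0.42, -1.27 and -1.13. The replication genes had a median of 0.08 at 2 h. Of the 25 genes raised at 2 h, 19 were called higher and 1, KLF11, called lower at 24 h, and the 4 lowered genes were all called lower again. TRAF4 and PLK2 each lost their 24 h call without some single arrays (adjusted p from 0.0642 to 0.177), without 24 h smoke extract replicate 3 in both.

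The test of the 24 h effect minus the 2 h effect called 1274 genes (6.92%), 245 higher (1.33%) and 1029 lower (5.59%), and 11 of the 29 genes were among them. With quantile normalization this test called 609 genes higher and 852 lower. MDM2 had 10.88, 10.73 and 11.15 in irradiated smoke extract cells at 24 h, against 9.60, 9.72 and 9.58 in smoke extract cells. Its effect of 1.29 at 24 h was 0.79 ± 0.15 above that at 2 h (adjusted p = 0.000238), and its arrays without radiation were lower at 24 h than at 2 h. TP53INP1 (0.67 ± 0.20) and GAS6-AS1 (0.65 ± 0.19) also had larger effects at 24 h. KLF11 had 6.82, 6.97 and 6.98 in irradiated smoke extract cells at 24 h, against 7.50, 7.38 and 7.40 in smoke extract cells, and so changed sides, with a difference of -0.94 ± 0.13 (adjusted p = 2.79e-07). BHLHE41, at -0.24 ± 0.09 (adjusted p = 0.0552) at 24 h, differed by -0.63 ± 0.12, and E2F7, at 0.06 ± 0.09, by -0.44 ± 0.12. TROAP (-1.02), CCNF (-0.47) and FAM83D (-0.47) fell further. CDKN1A (0.91 ± 0.16 at 24 h), GADD45A (0.97 ± 0.11), FAS (0.92 ± 0.11) and PHLDA3 (0.72 ± 0.08) had effects at 24 h whose differences from 2 h were not called (adjusted p from 0.823 to 0.936). Leaving out 1 of the 12 arrays ended the calls of PLK3 (9 arrays, adjusted p from 0.0522 to 0.207), TNFRSF10D (3, 0.052 to 0.06), E2F7 (3, 0.0519 to 0.0688), TP53INP1 (4, 0.0705 to 0.153), GAS6-AS1 (4, 0.0565 to 0.112), CCNF (2, 0.0576 and 0.088) and FAM83D (2 h irradiated replicate 1, 0.0626).

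**Figure D5:**
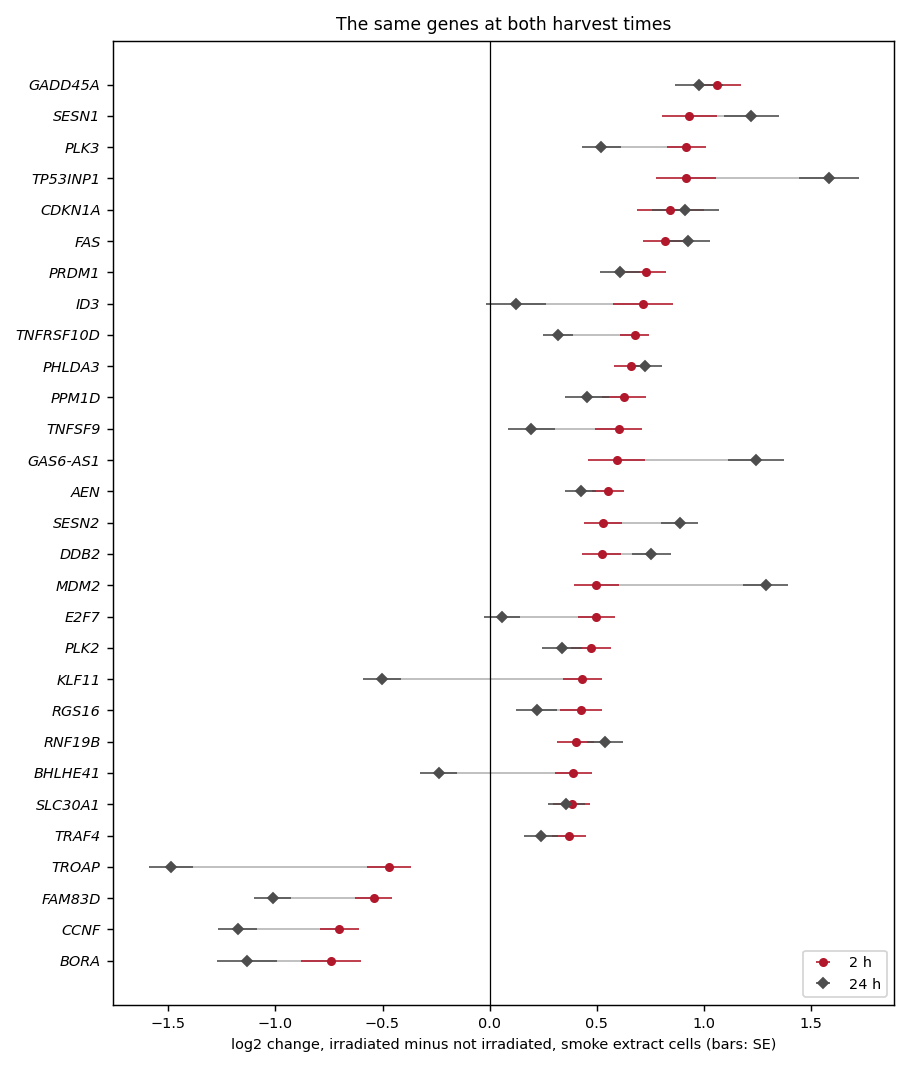
Log2 change with radiation in smoke extract cells of the 29 genes at 2 h (red circles) and at 24 h (dark diamonds), joined by a line, with bars of 1 SE of the limma fit. KLF11 and BHLHE41 lie on opposite sides of 0 at the 2 times, MDM2, TP53INP1 and GAS6-AS1 lie further right at 24 h, and the 4 lowered genes lie further left.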

How the data were processed

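Expression was measured on 54 one-colour whole-transcript arrays of NCI-H460 cells, and sample titles gave 18 groups of 3. The authors deposited values from 0.892 to 13.8, read here as log2 levels because of that range. They were made with Affymetrix Power Tools 1.15.0, per the submitters' processing notes. How probes were summarized and arrays normalized is not given in the sources used here. Without detection calls, low values cannot be separated from background, and the number of arrays limits the precision. Values were used as deposited.

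The values covered 33297 transcript clusters, of which 19460 had exactly 1 gene symbol in the platform annotation, 1754 several and 12083 none. The cluster with the highest mean over 54 arrays stood for each of 18417 genes. Limma 3.58.1 in R 4.3.3 fitted 18 group means to all 54 arrays, with 36 residual degrees of freedom and an intensity trend in eBayes. Each of 9 comparisons was tested two-sided, with Benjamini-Hochberg adjustment over the 18417 genes and a threshold of 0.05 on the adjusted p. The fit was tested on simulated data.

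The comparison, gene lists and named genes were chosen with earlier results of these data known. Named genes were up to 15 called genes each way with the largest change and non-overlapping arrays, up to 4 called members of each list, the fixed genes CDKN1A, MDM2, GADD45A, PLK3, SESN1, TP53INP1, FAS, BTG2 (not analysed here), ATF3, WEE1, CCNF, PLK1, ASPM, CYP1A1, CYP1B1, TIPARP, STC2, IL1A, HMOX1, DUSP1 and IL6, and for other comparisons the 5 largest called changes each way, or the 3 smallest p where none was called. Other list members were named as values to illustrate their list. Alternatives were a replicate block, quantile normalization, no trend, a covariate for the olfactory receptor mean, only genes above the median level, all rows, estimated array weights, only the compared groups, and leaving out each array.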

Additional observations from a re-analysis of the deposited data

Results flagged for a closer look

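The radiation effect in smoke extract cells differed between the harvests for 11 of the 29 genes called at 2 h, by limma's test of the 24 h effect minus the 2 h effect. On the log2 scale the difference was -1.02 ± 0.15 (SE) for TROAP (adjusted p = 9.84e-07), -0.94 ± 0.13 for KLF11 (2.79e-07), -0.63 ± 0.12 for BHLHE41 (0.000256), -0.47 ± 0.13 for CCNF (0.0123), -0.47 ± 0.12 for FAM83D (0.00886), -0.44 ± 0.12 for E2F7 (0.0157), -0.40 ± 0.13 for PLK3 (0.0491) and -0.36 ± 0.10 for TNFRSF10D (0.0142). It was 0.79 ± 0.15 for MDM2 (0.000238), 0.67 ± 0.20 for TP53INP1 (0.027) and 0.65 ± 0.19 for GAS6-AS1 (0.0197). TROAP, KLF11, BHLHE41 and MDM2 kept these calls on leaving out any 1 of the 12 arrays.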

How the results depend on the processing

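Of the 29 genes called in smoke extract cells at 2 h, 14 kept their call under every alternative that tested them (PLK3, TNFRSF10D, GADD45A, PHLDA3, CCNF, FAS, PRDM1, AEN, SESN1, TP53INP1, FAM83D, PPM1D, SESN2 and E2F7), 15 lost it under at least 1, and 0 changed direction. The count of 29 was 28 with the replicate block, 27 with quantile normalization, 26 with all rows and 17 to 28 on leaving out 1 array, and 55 with only the compared groups. The same setting gave 222 calls for radiation alone, 68 after nicotine, 10 for radiation against cisplatin and 1226 at 24 h. The olfactory receptor covariate gave 116, 70 and 112 calls for radiation alone, after nicotine and against cisplatin. Leaving out 1 array gave 27 to 148, 26 to 33 and 27 to 33 calls in those comparisons, and 0 in every test of a difference between pretreatments. Estimated array weights, from 0.121 to 71.8 and without convergence, gave 3655 calls in smoke extract cells at 2 h, 2008 for radiation alone, 254 after nicotine, 1028, 95 and 785 for the differences from untreated, nicotine and both, 3319 against cisplatin, 8941 at 24 h and 8116 for 24 h minus 2 h, where the CDKN1A difference became -0.47 from 0.07. The cause of these changes was not tested. List medians were followed under 9 settings: quantile normalization, the olfactory receptor covariate, genes above the median level and leaving out each compared array. Array weights and the other alternatives were not among them. Medians ran from 0.23 to 0.48 for p53 feedback, from 0.15 to 0.26 for death genes and from -0.25 to -0.13 for G2/M. They moved by at least the SD of the list mean within groups in 4, 1 and 0 of the 9 settings.

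Replicate numbers gave no uniform pairing: deviations of same-numbered irradiated and smoke extract arrays correlated at -0.05, 0.59 and 0.24. Irradiated replicates 2 and 3 each correlated best with the same number, and replicate 1 with number 3 (0.45). Deviations from a mean of 3 arrays are not independent, so these values cannot decide whether the cultures were paired. The replicate block moved no count of calls by over 1.5 times and ended 1 call of the 29, that of RGS16 (adjusted p = 0.0524).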
